A study of Mus musculus with 9 samples.

Results

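Formins are actin nucleators that start and lengthen unbranched filaments. The 10 genes described here were Diaph1, Diaph2, Diaph3, Daam1, Daam2, Fmnl2, Fmnl3, Fhod1, Fhod3 and Inf2, chosen by name among 35896 mouse genes with transcripts in the files. On GRCm38 they lie at chr18:37843601-37935476 (Diaph1), chrX:129749742-130465834 (Diaph2), chr14:86655367-87141235 (Diaph3), chr12:71831078-71992333 (Daam1) and chr17:49456022-49564343 (Daam2). Fmnl2 lies at chr2:52857860-53133804, Fmnl3 at chr15:99317225-99370482, Fhod1 at chr8:105329163-105347953, Fhod3 at chr18:24708623-25133501 and Inf2 at chr12:112588784-112615557. All 10 were matched by Ensembl identifier, and all 10 passed the filter on low counts that left 14648 genes for testing. RNA was measured in E14 mouse embryonic stem cells, a single cell line, by poly-A RNA-seq in 9 libraries forming 3 groups of 3 biological replicates. The self-renewal control was kept with LIF2i, which is leukaemia inhibitory factor (LIF) with 1 µM of the MEK inhibitor PD0325901 and 1 µM of the GSK3β inhibitor CHIR99021. The withdrawn control spent 72 h without LIF2i, and the CK666 group spent the same 72 h without LIF2i in 80 µM CK666, renewed every 24 h. All cells grew on gelatin in serum-containing medium. CK666 is a compound that blocks Arp2/3, and its stock was in DMSO. The labels do not say whether the controls received DMSO, so drug and solvent cannot be told apart, and Arp2/3 activity itself was not measured in these libraries.

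The Arp2/3 complex builds branched actin networks from the sides of existing filaments. Formins instead hold the growing end of a filament through a paired FH2 domain and feed it profilin-bound actin through their FH1 domain, and many are held inactive by contact between their own ends. Both machineries draw on one pool of actin monomers, and the design allows the question of whether formin transcripts differ when Arp2/3 is inhibited.

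Fmnl2 encodes a formin of lamellipodia and filopodia. The coding ends of its 2 most abundant forms in the withdrawn control are given here, since their shares are described further on. Those shares were singled out after their values were seen, and edgeR called neither form with CK666. Both forms share the start of an exon on chr2 (GRCm38, plus strand), and they differ in where that exon ends. In the longer form the exon runs over chr2:53130412-53130505, and the capitals mark the 47 bases that belong to that form alone. In the shorter form the exon stops at base 53130458 and is joined to the next exon, whose 36 coding bases at chr2:53131840-53131875 are in capitals. The longer form holds that next exon too, outside its coding sequence, so those 36 bases differ between the forms in coding status only. The coding sequence is 3258 bases in the longer form (ENSMUST00000127122.8) and 3249 bases in the shorter form (ENSMUST00000049483.13). Another form, ENSMUST00000050719.12, has 3102 coding bases and is not printed.
Fmnl2 longer form: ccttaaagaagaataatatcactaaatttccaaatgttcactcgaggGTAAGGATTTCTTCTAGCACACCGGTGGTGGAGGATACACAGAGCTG
Fmnl2 shorter form: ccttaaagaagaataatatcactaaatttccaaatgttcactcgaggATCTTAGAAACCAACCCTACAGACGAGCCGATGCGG

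Inf2 encodes a formin that can also sever filaments and is known at the endoplasmic reticulum and mitochondria. It is the member with the most copies of a searched motif in its promoter, so that promoter is shown, from RefSeq on GRCm38.p6, plus strand, chr12:112588517-112588816. Capitals mark each copy of GGAATG, the core letters bound by TEAD factors, or of its reverse complement CATTCC.
Inf2 promoter: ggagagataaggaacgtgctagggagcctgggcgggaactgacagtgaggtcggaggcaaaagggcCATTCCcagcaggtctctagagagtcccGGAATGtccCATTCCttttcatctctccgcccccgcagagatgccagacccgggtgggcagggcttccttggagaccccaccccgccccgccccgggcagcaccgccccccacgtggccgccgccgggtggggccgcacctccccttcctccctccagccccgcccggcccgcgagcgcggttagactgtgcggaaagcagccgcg
The table of RefSeq promoters, each 300 bases long with 250 before the start, held 11 entries for 8 of the 10 formins, all but Diaph1 and Fhod3. GGAATG occurred 3 times in the Inf2 promoter and once in that of Fmnl3, searched on both strands. Of 32851 promoters, 14.7% held GGAATG and 0.131% held it at least 3 times. None of the 11 formin promoters held the letters TATAAA, which 13.6% of all promoters held, or a CArG box (serum response factor's motif), which 1.63% held. The motifs do not overlap one another in the printed promoter, and a match of letters is a description and not a binding site.

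The libraries held 16894327 to 22550952 estimated counts. The 3 libraries numbered replicate 1 stood apart from the others: they had 15690 to 17605 genes above 0, against 18166 to 18749 in the 6 libraries of replicates 2 and 3. Tests of formins whose call changes without them, and mean levels that they move by over 1.5 times, are given both ways. Pluripotency markers (Pou5f1, Nanog, Sox2, Zfp42 and Esrrb) summed to 3331 to 3980 TPM (transcript abundance corrected for length and scaled to a fixed library total) in the self-renewal control and to between 1469 and 1904 TPM in the 6 libraries without LIF2i. Fibroblast or feeder markers summed to 2.11 to 8.74 TPM and trophoblast markers to 0.317 to 2.16 TPM over all 9 libraries. After withdrawal edgeR called 3 of the 4 tested fibroblast or feeder markers raised, namely Col1a1 (1.01), Dcn (3.11) and Col1a2 (3.42 on the log2 scale), with group means of at most 4.17 CPM, beside 21.1% of all genes raised. The mesoderm marker Mixl1 was raised (4.21) and the neural marker Sox1 lowered (-1.36) in that comparison, and the part of these markers in the formin differences was not tested. In bulk RNA, fewer cells of a type and less RNA per cell cannot be told apart.

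Levels are compared between genes in TPM, since it corrects for transcript length. Diaph1, which encodes a formin of the Diaphanous group, had the highest level in every library. In the self-renewal control its TPM was 101, 51.0 and 50.6 in replicates 1, 2 and 3. Without LIF2i it was 91.8, 70.7 and 63.0, and with CK666 it was 82.1, 59.1 and 65.3. Diaph1 alone made up 37.4% ± 0.495 (SD, n = 3) of the TPM of the 10 formins in the self-renewal control, 37.4% ± 3.13 in the withdrawn control and 33.6% ± 0.788 with CK666.

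Below Diaph1 the order differed between the groups. In the self-renewal control Diaph3 came next, at 30.6 ± 18.03 TPM, ahead of Fmnl2 at 15.9 ± 10.4, Daam1 at 14.9 ± 10.2, Fhod3 at 14.5 ± 1.72 and Inf2 at 11.6 ± 2.298. Diaph2 at 9.20 ± 4.33, Fmnl3 at 8.19 ± 2.33 and Fhod1 at 7.97 ± 0.907 followed. Neighbours in this order from Diaph3 down to Fhod1 differed by less than the larger of their SDs, apart from Fhod3 and Inf2. Replicate 1 set much of this order, with Diaph3 at 51.4, Fmnl2 at 27.9 and Daam1 at 26.6 TPM. Without it the self-renewal means were 20.2 TPM for Diaph3, 13.9 for Fhod3, 10.3 for Inf2, 9.86 for Fmnl2 and 9.03 for Daam1, so Fhod3 came next after Diaph3. Fhod3 in the withdrawn control was likewise at 3.65 TPM without replicate 1. In the withdrawn control Fmnl2 came next after Diaph1 at 31.2 ± 4.27 TPM, beyond its spread from Inf2, Fhod1 and Diaph3, which followed at 18.2 to 20.3 TPM. Fhod3 stood above Daam2 alone there, at 5.67 ± 3.49 TPM. Under CK666 Fmnl2 at 30.3 ± 5.52 TPM and Inf2 at 26.9 ± 1.42 came next after Diaph1 and did not differ beyond their spread. Fhod3 stood at 15.1 ± 6.81 TPM in that group, between Diaph3 and Fhod1 and within its spread of both.

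Daam2, a relative of Daam1 that binds Dishevelled in Wnt signalling, was the lowest formin in every group. Its TPM lay between 0.0471 and 0.398 over the 9 libraries, resting on 5 to 38 counts. All of it came from transcripts annotated as retained_intron, and its protein_coding transcripts were listed at 0 TPM in all 9 libraries. The 10 formins together summed to 181 ± 76.9 TPM in the self-renewal control, 200 ± 30.4 in the withdrawn control and 205 ± 35.7 with CK666. Replicate 1 of the self-renewal control reached 269 TPM, against 135 and 137 in replicates 2 and 3. Without the replicate 1 libraries the means were 136, 183 and 186 TPM.

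**Figure D1:**
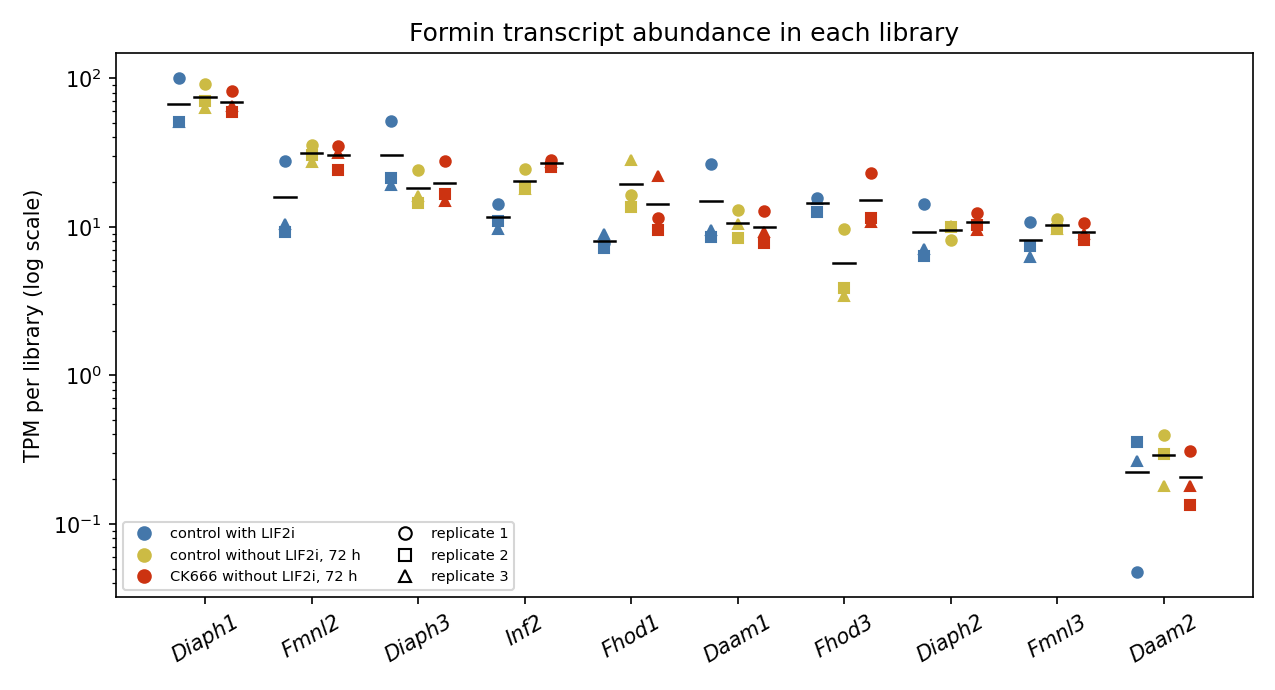
Level of each formin in TPM (log axis) in the 9 libraries; points are libraries, coloured by group, and bars are group means. Diaph1 lies above all other members in every library, and Daam2 stays under 0.4 TPM.

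Changes within a gene were tested on counts, and levels are then given as CPM, the counts scaled to a fixed library total after TMM scaling. The edgeR quasi-likelihood test was fitted over all 9 libraries with the replicate number as a block, since the series describes its biological replicates as paired. A gene was called at an adjusted p (Benjamini-Hochberg over 14648 genes) under 0.05. Log2 fold changes carry a standard error (SE).

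Withdrawal of LIF2i asked how formin transcripts differ between self-renewing cells and cells released from self-renewal for 72 h. In all, 5 formins were called: Fhod1, Fmnl2 and Inf2 rose, and Fhod3 and Diaph3 fell. The 5 called of 10 stand beside 40.7% of all tested genes called in this comparison, with 21.1% raised and 19.7% lowered. The median log2 fold change of the 10 was 0.30, beside 0.01 for all tested genes. For 5 formins the 2 groups did not overlap in CPM, as for 40.7% of all genes.

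Fhod1, a formin of stress fibres, had the highest log2 fold change, though within its SE of that of Fmnl2. The CPM of Fhod1 was 12.8, 20.3 and 23.1 in replicates 1, 2 and 3 of the self-renewal control and 37.6, 36.6 and 68.1 in the withdrawn control. All 3 withdrawn libraries were above all 3 with LIF2i, replicate 3 the farthest. The log2 fold change was 1.31 (SE 0.19), with edgeR's adjusted p = 0.00059. Of the exonic bases of Fhod1, 2.49% are shared with Tmem208 on the other strand. The kit named in the labels' protocols does not mark strand, so reads there cannot be told apart by strand. The strand setting of the counting is not given in the sources used here.

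Fmnl2 was at 69.3, 37.9 and 40.1 CPM in the self-renewal control and at 110, 114 and 100.0 CPM after withdrawal. The groups did not overlap, and replicate 1 was the highest of the self-renewal libraries. Its log2 fold change was 1.18 (SE 0.18), with edgeR's adjusted p = 0.00086. Fmnl3, its close relative, was at 27.1, 19.5 and 19.1 CPM with LIF2i and at 29.4, 28.3 and 28.0 CPM without. These groups did not overlap either, but the log2 fold change of 0.40 (SE 0.15) missed the threshold with edgeR's adjusted p = 0.056. It passed without the replicate 1 libraries (0.57, adjusted p = 0.013), and also when only replicate 1 of the self-renewal control (0.53, 0.016) or only replicate 1 of the withdrawn control (0.53, 0.042) was left out.

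Inf2 went from 26.0, 28.3 and 23.1 CPM to 49.2, 43.1 and 41.0 CPM. Every withdrawn library exceeded every self-renewal library, and the spread within each group was small. The log2 fold change was 0.79 (SE 0.13), with edgeR's adjusted p = 0.0014.

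Fhod3, known for its part in building the sarcomeres of heart muscle, fell by 1.48 on the log2 scale (SE 0.27), with edgeR's adjusted p = 0.0023. It was at 42.1, 44.7 and 56.9 CPM in the self-renewal control and at 29.2, 14.1 and 12.3 CPM after withdrawal. The groups did not overlap, and the difference was smallest in replicate 1, where the withdrawn library was highest. Without the replicate 1 libraries the log2 fold change was -1.91, with edgeR's adjusted p = 2.1e-05. Of its exonic bases 4.26% are shared with Gm9955 on the other strand.

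Diaph3, a formin of the cleavage furrow and of filopodia, was at 110, 61.9 and 56.4 CPM with LIF2i and at 59.2, 41.1 and 40.2 CPM without. The groups overlapped, since withdrawn replicate 1 lay above self-renewal replicate 3, but each replicate number gave the lower value without LIF2i. Diaph3 fell by 0.66 on the log2 scale (SE 0.12), with edgeR's adjusted p = 0.0027. Of 21 alternative fits, the one without the block lost this call, with edgeR's adjusted p = 0.14. Transcripts annotated as protein_coding made up 16.4 of its 30.6 mean TPM in the self-renewal control.

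The other Diaphanous members and the Daam pair were not called. Diaph1 was at 325, 221 and 206 CPM with LIF2i and at 313, 290 and 247 CPM without, overlapping groups with a log2 fold change of 0.20 (SE 0.13) and edgeR's adjusted p = 0.25. Diaph2, a relative of Diaph1 on the X chromosome, was at 47.7, 29.1 and 30.3 CPM and then at 28.2, 37.3 and 44.2 CPM. Its replicate 1 pair went down while the other 2 pairs went up, and the log2 fold change was 0.05 (SE 0.23), with edgeR's adjusted p = 0.88. Leaving out the replicate 1 libraries brought both past the threshold, Diaph1 at 0.36 (edgeR's adjusted p = 0.024) and Diaph2 at 0.48 (0.022). Diaph1 also passed without replicate 1 of the self-renewal control alone (0.35, 0.027), and 8 of the 10 formins were called without the 3 replicate 1 libraries, beside 44.8% of all genes in that fit.

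Daam1, which binds Dishevelled in planar cell polarity signalling, was at 88.5, 38.9 and 40.8 CPM with LIF2i and at 43.5, 35.6 and 42.6 CPM without. Replicate 1 of the self-renewal control was high and the remaining 5 libraries lay close together. The log2 fold change was -0.38 (SE 0.20) with edgeR's adjusted p = 0.16, and it was -0.01 without the replicate 1 libraries. Daam2 counts were too few for a narrow estimate, with a log2 fold change of 1.22 (SE 0.64) and edgeR's adjusted p = 0.16. It ranged from 0.31 to 1.62 over 19 alternatives.

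The comparison of CK666 with the withdrawn control, both without LIF2i, asked whether any formin differed under Arp2/3 inhibition. Fhod3 rose 2.59-fold and was the one formin called. The other 9 formins were not called, and 7 of them had log2 fold changes between -0.17 and 0.20. One call of 10 stands beside 2.05% of all tested genes called, 1.15% raised and 0.894% lowered. The median log2 fold change of the 10 was -0.02, beside 0.02 for all tested genes. This comparison and that of withdrawal share the 3 withdrawn control libraries, so a value that is low or high there enters both in opposite directions.

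Fhod3 was at 29.2, 14.1 and 12.3 CPM in the withdrawn control and at 61.5, 40.5 and 38.2 CPM with CK666. All 3 CK666 libraries exceeded all 3 withdrawn libraries, and replicate 1 was the highest of both groups. The log2 fold change was 1.37 (SE 0.27, 95% interval 0.78 to 1.97), with edgeR's adjusted p = 0.039. Within the replicate pairs the log2 ratio was 1.06, 1.49 and 1.60. Without the replicate 1 libraries it was 1.56, with edgeR's adjusted p = 0.001.

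The Fhod3 call passed in 12 of 21 alternative fits, with log2 fold changes of 1.15 to 1.71 and edgeR, DESeq2 or limma adjusted p from 4.7e-05 to 0.39. Without the replicate block the adjusted p was 0.33. Single libraries decided it as well, all in edgeR: the adjusted p was 0.084 without CK666 replicate 1, 0.21 without CK666 replicate 2 and 0.13 without CK666 replicate 3. Without withdrawn replicates 2 and 3 it was 0.2 and 0.21, and without self-renewal replicate 2 it was 0.054. Leaving out all replicate 2 libraries gave 0.39 and all replicate 3 libraries 0.3. Neural markers (Sox1, Pax6 and Neurog2) summed to 16.7, 2.37 and 3.22 TPM in the withdrawn control. With CK666 they summed to 19.9, 9.07 and 10.2 TPM, higher in every pair. Neither of the 2 that were tested was called. Formative markers (Fgf5, Otx2, Dnmt3b and Pou3f1) summed to 1133, 588 and 401 TPM and to 755, 231 and 247 TPM, lower in every pair, with Fgf5 called lowered. Mesoderm markers summed to 7.06, 3.63 and 8.88 TPM in the withdrawn control and to 4.33, 2.60 and 1.74 TPM with CK666. Primitive endoderm markers summed to 8.05, 2.98 and 3.00 TPM and to 8.86, 4.64 and 6.88 TPM. Neither list had a call, although every pair went down for the mesoderm list and up for the endoderm list. The part of these marker lists in the Fhod3 difference was not tested.

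Inf2 was at 49.2, 43.1 and 41.0 CPM in the withdrawn control and at 59.3, 60.9 and 61.6 CPM with CK666. The CK666 libraries lay close together and above every withdrawn library. Fhod3 and Inf2 were the 2 formins whose groups did not overlap, which held for 16.5% of all genes. The log2 fold change of Inf2 was 0.45 (SE 0.13, 95% interval 0.16 to 0.74), and it missed the threshold with edgeR's adjusted p = 0.099. It passed in 3 of 21 alternatives: without the replicate 1 libraries (0.53, edgeR's adjusted p = 0.035), without self-renewal replicate 1 (0.44, 0.040) and with only the 2 groups fitted (0.44, 0.046).

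Fhod1 was at 37.6, 36.6 and 68.1 CPM without the drug and at 28.3, 25.5 and 52.5 CPM with it. It was lower in each of the 3 pairs, though the groups overlapped because replicate 3 was high in both. The log2 fold change was -0.43 (SE 0.18, 95% interval -0.84 to -0.02), with edgeR's adjusted p = 0.23. With only the 2 groups fitted the adjusted p was 0.042 at a log2 fold change of -0.45.

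For the remaining formins the interval limits how large a difference these libraries could hold. Fmnl2 was at 116, 96.6 and 115 CPM with CK666, in the same range as the withdrawn control, with a log2 fold change of 0.01 (95% interval -0.39 to 0.40) whose sign turned under other scalings. Fmnl3 was at 28.8, 24.4 and 23.2 CPM, with -0.17 (-0.50 to 0.16). Diaph1, at 294, 247 and 259 CPM, had -0.09 (-0.37 to 0.20). All 3 genes overlapped between the groups.

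Diaph3 was at 68.2, 45.3 and 38.8 CPM with CK666, a log2 fold change of 0.10 (95% interval -0.18 to 0.38). Diaph2, at 44.0, 42.4 and 39.7 CPM, had 0.20 (-0.31 to 0.70). Daam1, at 47.1, 33.8 and 36.9 CPM, had -0.07 (-0.51 to 0.38). In each of these genes one replicate pair went against the other 2 or the values crossed, and none passed the test. Daam2, at 0.805, 0.905 and 1.17 CPM, had an interval of -1.50 to 1.40, too wide to bound a difference.

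**Figure D2:**
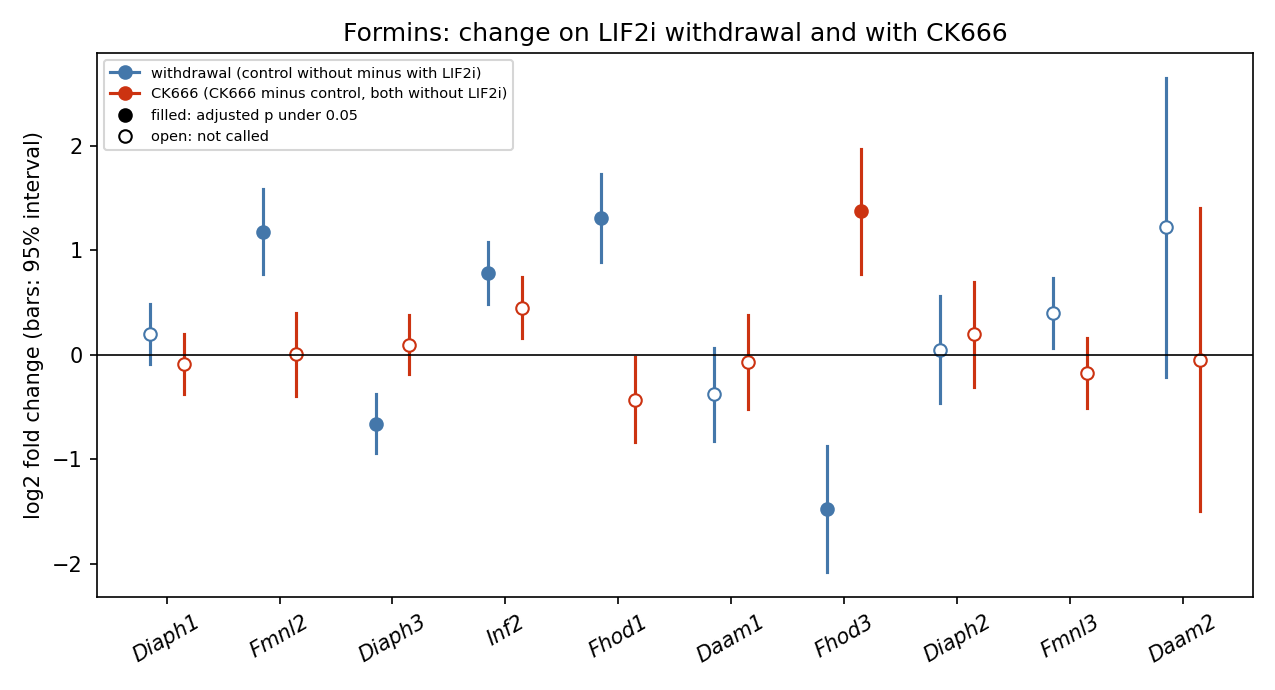
Log2 fold change of each formin (y axis) after LIF2i withdrawal and with CK666 against the withdrawn control, with its 95% interval as a bar; filled points passed an adjusted p of 0.05. In the CK666 comparison Fhod3 alone is filled, at 1.37, and Daam2 has the widest interval.

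**Figure D3:**
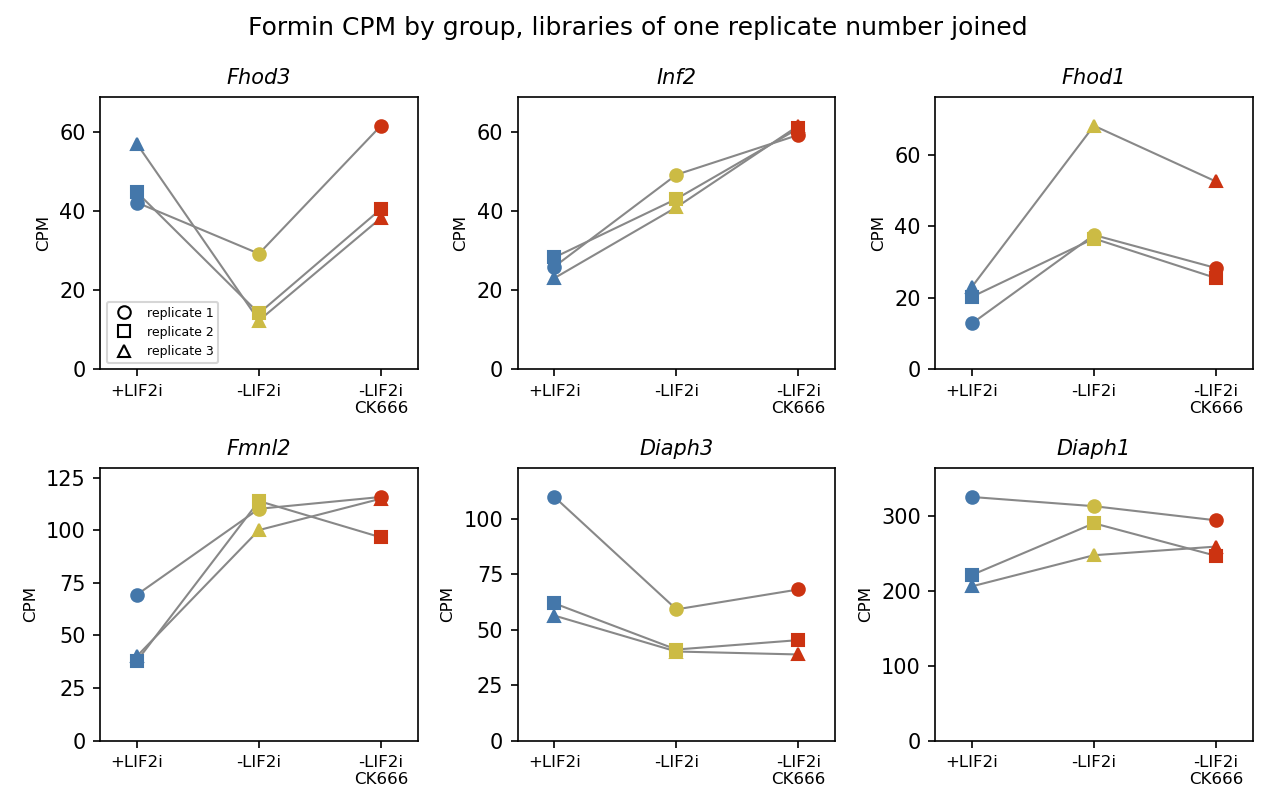
CPM of Fhod3, Inf2, Fhod1, Fmnl2, Diaph3 and Diaph1 in the 3 groups, with lines joining libraries of the same replicate number. Fhod3 goes down and up again in all 3 numbers, while Inf2 goes up at both steps.

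The CK666 group was also set against the self-renewal control, from which it differed by the loss of LIF2i and the drug together. Inf2, Fmnl2 and Fhod1 rose and Diaph3 fell, 4 of 10 formins beside 36.9% of all tested genes, 19.8% raised and 17.1% lowered. The median log2 fold change of the 10 was 0.24, beside 0.01 over all genes. Groups did not overlap in CPM for Fmnl2, Fhod1, Inf2 and Daam2, against 37.3% of all genes, but the direction of Daam2 turned with length offsets (1.18 on counts, -0.07 with offsets). In this comparison 2 of 4 tested fibroblast or feeder markers were raised (Col1a2 and Dcn), beside 19.8% of all genes raised, as was the trophoblast marker Gata3. Of the 2 mesoderm markers tested, Mixl1 was raised and Eomes lowered, and the part of these markers in the formin differences was not tested. The self-renewal libraries are those of the withdrawal comparison and the CK666 libraries those of the drug comparison.

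Inf2 was 2.36-fold higher with CK666 than with LIF2i, with a log2 fold change of 1.24 (SE 0.13) and edgeR's adjusted p = 0.00013. Fmnl2 stood at 1.19 (SE 0.18), with edgeR's adjusted p = 0.00094, beside 1.18 in the withdrawal comparison. Fhod1 stood at 0.88 (SE 0.19) and Diaph3 at -0.56 (SE 0.12), with edgeR's adjusted p = 0.0058 and 0.0071. Without the 3 replicate 3 libraries the adjusted p was 0.1 for Fhod1 and 0.074 for Diaph3, and both calls were lost without the block. Fhod3 differed by -0.10 (SE 0.26, 95% interval -0.69 to 0.48), with edgeR's adjusted p = 0.78, and its replicate pairs went in both directions.

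Diaph2 was at 0.25 (SE 0.22) in this comparison, with edgeR's adjusted p = 0.42. It passed without the replicate 1 libraries (0.48, adjusted p = 0.024) and without self-renewal replicate 1 alone (0.58, 0.025). Fmnl3 at 0.23, Diaph1 at 0.11, Daam1 at -0.45 and Daam2 at 1.18 were not called.

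Transcript estimates divide reads between overlapping forms, and their assignment error is not part of the deposited values. Of 55 formin transcripts, 30 passed the filter among 39637 tested. After withdrawal 4 were called, beside 6.3% of all transcripts. The shorter Fmnl2 form rose by 2.36 (SE 0.28, edgeR's adjusted p = 0.0081) on the log2 scale. The other 3 raised were 1 form each of Fhod1 (1.39), Diaph1 (1.43) and Inf2 (0.95). All 4 calls were lost without the replicate block, and they could be lost together when libraries were left out.

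In the drug comparison edgeR called 0 transcripts of any gene, while 2931 of all transcripts (7.39%) and 6 of the 30 formin transcripts had an unadjusted p under 0.05. Among those 6, the longer Fmnl2 form was at 0.69 (SE 0.20, edgeR's adjusted p = 0.51) and the shorter at -1.15 (SE 0.27, edgeR's adjusted p = 0.45). Against the self-renewal control 4 formin transcripts were called, beside 4.89% of all. These were the longer Fmnl2 form at 1.60, the same Diaph1 form at 1.42 and 2 forms of Inf2 at 1.43 and 1.18. These 4 calls too could be lost together when libraries were left out.

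The share of Fmnl2's TPM in the longer form was 43.4%, 50.5% and 33.5% in the withdrawn control and 65.5%, 78.3% and 65.0% with CK666. The groups did not overlap, and each CK666 library was above its pair. The mean share was 42.5% ± 8.55 (SD, n = 3) against 69.6% ± 7.54. A two-sided exact permutation test that did not use the pairing by replicate number gave p = 0.1, the smallest that 3 against 3 allows. In the self-renewal control the share was 29.5%, 71.2% and 65.6%, so replicate 1 stood far below the others. The shorter form held 33.4%, 17.8% and 31.4% in the withdrawn control and 18.4%, 10.04% and 9.81% with CK666. This share overlapped between the groups, although it was lower in all 3 pairs. In the self-renewal control the shorter form held 12.5% on average and the form ENSMUST00000050719.12 held 29.6%, with 52.5% in replicate 1. That form's mean share was 13.3% in the withdrawn control and 10.96% with CK666.

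For Diaph1, the form ENSMUST00000115634.7 lacks a coding exon of 27 bases at chr18:37906388-37906414 (GRCm38) that ENSMUST00000025337.13 has. It also has a first exon of 275 against 180 bases and a last exon of 1898 against 1896 bases. The share of ENSMUST00000115634.7 therefore does not single out the small exon. It held 20.8%, 18.9% and 10.8% of the gene's TPM with LIF2i, 43.2%, 36.5% and 34.0% after withdrawal and 35.3%, 40.6% and 41.0% with CK666. It held 20.8%, 18.9% and 10.8% of the gene's TPM with LIF2i, 43.2%, 36.5% and 34.0% after withdrawal and 35.3%, 40.6% and 41.0% with CK666. Every library without LIF2i was above every library with it, and the 2 groups without LIF2i overlapped. The means were 16.8% ± 5.28, 37.9% ± 4.75 and 39.0% ± 3.19, in that order. Again without the pairing, the two-sided exact permutation p was 0.1, the smallest possible, for either group without LIF2i against the self-renewal control. Between those 2 groups it was 0.9.
The Fmnl2 and Diaph1 shares were singled out after their values were seen. Over 20 formin transcripts with at least 10% of their gene's TPM, 4, 1 and 4 shares did not overlap in the withdrawal, drug and drug-against-self-renewal comparisons, beside 13.1%, 9.67% and 12% of 22665 transcripts.

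**Figure D4:**
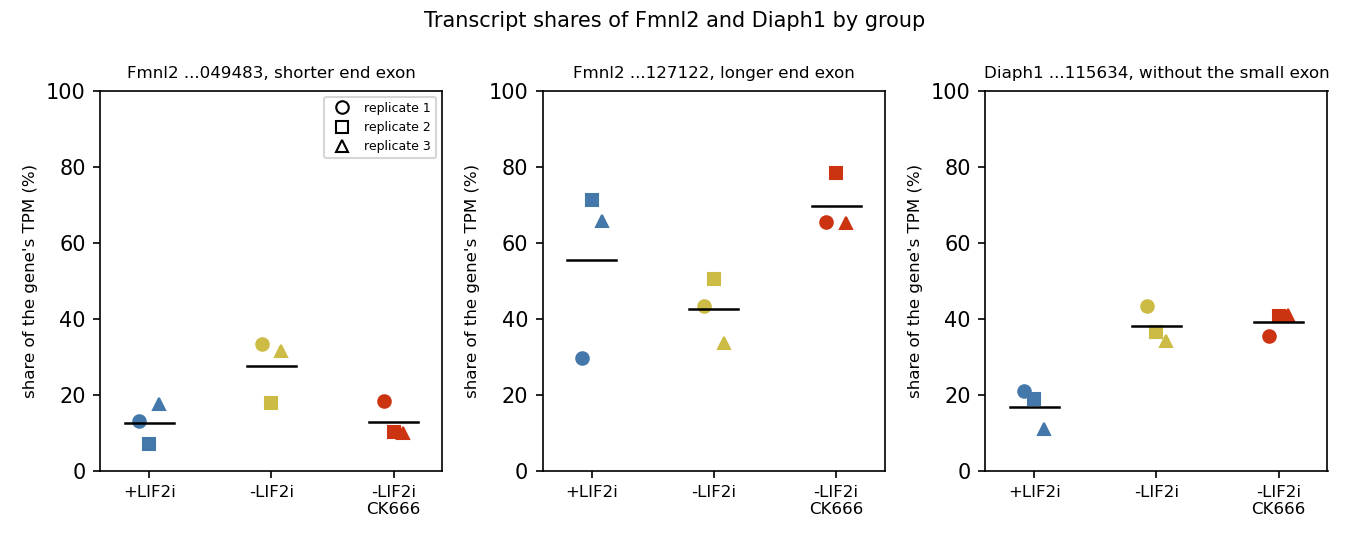
Share of the gene's TPM, in percent, held by single transcripts of Fmnl2 and Diaph1 in each library, by group; marker shapes are replicate numbers and bars are group means. The longer Fmnl2 form lies at 33.5% to 50.5% in the withdrawn control and at 65.0% to 78.3% with CK666.

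Over the 9 libraries, with each replicate number centred, some formins varied together and others in opposition. Fmnl2 and Fmnl3 had a Pearson r of 0.88 and Fmnl2 and Inf2 of 0.87, while Diaph3 and Daam1 had 0.81. Diaph3 ran against Fhod1 at -0.94 and Fmnl2 at -0.87, and Fhod3 against Fmnl3 at -0.85. Other pairs showed little relation, such as Diaph2 with Fhod1 (0.05) and Fhod3 with Inf2 (-0.16). The centring leaves the group differences in, so each r in part restates the fold changes given above. The points share their libraries and depth, and these values are descriptions.

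The genes whose pattern over the same 9 libraries was most like Fhod3, among 9496 protein-coding genes, were Pycr1 (r 0.99), Aldh18a1 (0.98) and Trap1 (0.98). For Inf2 they were Prrg3 (0.999), Shkbp1 (0.997) and Lrig3 (0.996). Pycr1 was at -0.81 after withdrawal and 0.81 with CK666 on the log2 scale, Aldh18a1 at -0.97 and 0.94 and Trap1 at -0.35 and 0.36, beside -1.48 and 1.37 for Fhod3. They were chosen for this pattern over the same libraries, so their opposite signs follow from the choice.

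The 4 formins outside the 10 were all tested. Fmnl1, a relative of Fmnl2 best known in blood cells, fell by 2.74 (SE 0.22, edgeR's adjusted p = 2.3e-05) after withdrawal, and Grid2ip, a formin of cerebellar synapses, rose by 1.61 (SE 0.45, 0.017), a call that passed in 15 of 20 alternatives. In edgeR that call was lost without withdrawn replicate 1 (0.055) or 2 (0.087) and without self-renewal replicate 3 (0.07). Fmn1 and Fmn2 were not called, beside 40.7% of all genes called after withdrawal. None of the 4 was called with CK666, beside 2.05% of all genes.

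Among 11 partners and regulators 3 were raised after withdrawal, beside 21.1% of all genes, and none was called with CK666, beside 2.05%. The 3 were profilin 1 (Pfn1, 0.90, edgeR's adjusted p = 0.0014), which delivers actin to formins, Cap2 (2.03, 0.0031), which recycles actin monomers, and the Dishevelled gene Dvl1 (0.61, 0.0053). Without the block the Pfn1 and Dvl1 calls were lost, with edgeR's adjusted p = 0.095 and 0.22, and that of Dvl1 also without the 3 replicate 3 libraries (0.11). The median log2 fold change of this list was 0.20 after withdrawal and -0.00 with CK666, beside 0.01 and 0.02 for all genes.

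Of 9 other linear filament nucleators and elongators 7 were tested, and after withdrawal 3 rose and 2 fell, beside 21.1% of all genes raised and 19.7% lowered. Those with the smallest adjusted p were Cobl, Spire1 (1.09), Enah (-0.87) and Lmod1 (2.78). Cobl, an actin nucleator with WH2 domains, was at 368, 187 and 247 CPM with LIF2i, at 13.6, 13.4 and 12.2 CPM after withdrawal and at 51.4, 51.9 and 19.8 CPM with CK666. It fell by 4.32 (SE 0.33, edgeR's adjusted p = 3.6e-05) and then stood 1.58 higher with the drug (SE 0.31, edgeR's adjusted p = 0.045), the only call of this list there, beside 1.15% of all genes raised.

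Among the 9 Arp2/3 subunits, Actr2 fell (-0.60, edgeR's adjusted p = 0.0018) and Arpc5 rose (0.84, 0.0053) after withdrawal. In that comparison 19.7% of all genes were lowered and 21.1% raised. The Actr2 call was lost without the block (0.21), and that of Arpc5 without the 3 replicate 2 (0.053) or replicate 3 libraries (0.077). With CK666, Arpc5 (-0.94, edgeR's adjusted p = 0.038) and Arpc4 (-0.54, 0.047) were lower and none was raised, beside 0.894% of all genes lowered, and the list's median was -0.01. Arpc5 differed by -0.10 between CK666 and self-renewal (edgeR's adjusted p = 0.7). The Cobl call passed in 8 of 21 alternatives, that of Arpc5 in 12 and that of Arpc4 in 8, with adjusted p up to 0.3, 0.36 and 0.65 in edgeR without the block. All 3 were lost in edgeR without CK666 replicate 1 (0.091, 0.07 and 0.077, for Cobl, Arpc5 and Arpc4 in turn) or 2 (0.21, 0.22 and 0.25), and without withdrawn replicate 2 (0.21, 0.18 and 0.16) or 3 (0.18, 0.24 and 0.27). Cobl was also lost without withdrawn replicate 1 (0.1) and self-renewal replicate 1 (0.057) or 3 (0.064). Arpc5 was lost without CK666 replicate 3 (0.13). Arpc4 was lost without CK666 replicate 3 (0.19), withdrawn replicate 1 (0.093) and self-renewal replicate 2 (0.054) or 3 (0.072).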

How the data were processed

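The deposited transcript tables, 1 for each of 9 libraries, hold estimated counts and TPM as the authors' kallisto run gave them, per the file headers' column names and the submitters' processing notes, which also name FastQC, cutadapt 1.8.1 and sleuth. Those notes list the builds mm10 and GRCh38 with no role. The kit named in the labels' protocols does not mark strand.

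Transcripts were matched by Ensembl identifier to GENCODE M21 (116640 of 119414, 97.7%). The unmatched 2774 held 0.895% to 1.08% of counts and were left out. Estimated counts were summed per gene, rounded and tested with edgeR 4.0.16 (R 4.3.3, TMM, filterByExpr, robust quasi-likelihood fit, replicate number as block, 4 residual degrees of freedom). The block follows the series' own statement that replicates are paired. Deviations of same-numbered libraries from their group means correlated at a median r of 0.41 (0.30 to 0.65 over 9 pairs), against -0.53 to -0.35 between replicate 1 and the others and 0.21 to 0.29 between replicates 2 and 3. TPM were summed per gene with no test. Scripts were tested on simulated data. The members and lists were chosen with earlier results of these data known. All 10 members are described. From the other lists, at most 4 called genes per comparison, those with the smallest adjusted p, were to be named, and against self-renewal only markers of other cell types were. Patterns like Fhod3 and Inf2, the members with the smallest p in the drug comparison, were ranked by Pearson r over protein-coding genes. Alternatives used limma 3.58.1 and DESeq2 1.42.0, other scalings, filters, offsets and left-out libraries. One of the lists is not reported here.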

Additional observations from a re-analysis of the deposited data

How the results depend on the processing

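Of 624 alternative values of the formins' log2 fold changes, 566 kept direction and side of the threshold, 12 gained and 14 lost a call and 32 turned sign. Without the replicate block, the genes called were 3509 after withdrawal, 0 with CK666 (1251 at an unadjusted p under 0.05 in edgeR) and 2966 for CK666 against self-renewal. Formins called were then 0 with CK666 and 2 against self-renewal, and formin transcripts called after withdrawal 0. For the 300 genes called with CK666, no filter gave 565, a minimum of 10 counts in each library 465, DESeq2 1136, limma voom 535, length offsets 149 and the fit of only the 2 groups 1367, which called 3 formins. Leaving out libraries gave 3099 to 6588, 0 to 1811 and 2413 to 6129 genes, 5 to 8, 0 to 2 and 2 to 5 formins, and 0 to 6, 0 and 0 to 5 formin transcripts, in the same order of comparisons. Mean summed TPM without replicate 1 was 136, 183 and 186.

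Fmnl2 with CK666 was -0.0103 with DESeq2 size factors and in DESeq2, -0.00811 with protein_coding transcripts, -0.0156 with the minimum of 10 counts, -0.0354 with length offsets and -0.00395 with the 2 groups alone. Daam2 against self-renewal, 1.18 on counts, was -0.0747 with length offsets. With libraries left out, the drug comparison ranged over -0.15 to 0.18 for Fmnl2, -0.28 to 0.0830 for Daam1, -0.61 to 0.56 for Daam2, -0.18 to 0.00310 for Diaph1, -0.10 to 0.42 for Diaph2 and -0.00664 to 0.18 for Diaph3. Diaph2 after withdrawal ranged over -0.20 to 0.48, and Fhod3 against self-renewal over -0.44 to 0.23. The causes were not tested. Where a fit leaves 1 group with fewer libraries, the groups share 1 estimate of spread. Daam2, at 5 to 38 counts, dropped out under the minimum of 10 counts and among protein_coding transcripts.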
